A study of Mus musculus with 35 samples.

Results

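The T cell receptor signalling cascade was described through 41 of the 52636 genes in the count table. They were chosen by name as a list of receptor chains, kinases, adaptors, signalling enzymes, transcription factors and inhibitors, and not by any value measured here, although earlier results of these data were known when the list was drawn up. All 41 were found in the table by Ensembl identifier and all 41 had enough counts to be tested. The libraries came from CD8 T cells of C57BL/6 mice in 3 sorted subsets: thymus CD8 single positive cells (Thymus CD8 SP), splenic naive cells (CD44- CD62L+) and splenic memory cells (CD44+ CD62L+). All 3 genotypes carried Lcre+/-, as the labels write the transgene. The 3 genotypes were Lcre+/-;Dot1Lwt/wt, Lcre+/-;Dot1Lfl/wt and Lcre+/-;Dot1Lfl/fl, called WT, Het and KO here, so the WT controls carried the transgene too. Dot1l encodes the methyltransferase of lysine 79 of histone H3. There were 4 libraries in each of the 9 groups of genotype and subset, except WT thymus with 3, and 35 in all. The labels give neither the promoter of the transgene, nor the floxed part of the gene, nor the age of the mice, and do not say that replicates were separate animals, so each p-value here reflects how far libraries of a group lie apart. Each of the 9 groups held both male and female libraries, as read from the counts, and so libraries of more than 1 animal.

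The T cell receptor has no enzyme activity of its own. When it meets its ligand, the kinase Lck, brought in by the CD8 coreceptor, phosphorylates the CD3 and zeta chains; Zap70 docks there and phosphorylates the adaptors Lat and Lcp2 (SLP-76), around which phospholipase C gamma 1, Vav1, Grb2 and Sos1 assemble. The lipase yields diacylglycerol, which feeds the Ras arm through Rasgrp1 and the NF-kB arm through protein kinase C theta, and raises calcium, which brings NFAT factors into the nucleus. Phosphatases, ubiquitin ligases and diacylglycerol kinases hold the cascade down, and its tuning sets which thymocytes mature and how readily naive and memory cells respond.

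Libraries held 4809509 to 16879636 counts (median 10406516). The 41 genes together took 0.734% to 0.855% of a library's counts. Dot1l itself, the check on the genotypes, was not lower in KO libraries. In thymus it was at 77.3 ± 1.68 (SD, n = 4) in KO and 67.0 ± 5.20 (n = 3) in WT cells, in CPM, which are counts scaled to a common library size by the TMM method. In the naive subset it was at 55.7 ± 1.26 and 49.5 ± 2.08, and in memory cells at 45.8 ± 1.88 and 45.4 ± 5.81 (n = 4 each). Since the floxed part is not given, these whole-gene counts do not test the deletion. The labelled cell type was checked on its own markers, which were uneven. The receptor beta constant genes Trbc1 and Trbc2 had means of 1490 and 1139 counts per library and Cd3e 2483. The alpha constant gene Trac had a mean of only 64.5 and Cd3g of 115. The CD4 coreceptor gene Cd4 had at most 2 counts in any library, which alone does not show its absence, since other T cell genes had few counts too. Of the defining CD8 genes, Cd8a had a mean of 92.0 and Cd8b1 of 57.5 counts, which is few for their cell type. In all, 9 of the 41 genes had a mean under 100 counts per library, namely Cd28 (14.5), Cd3d (21.3), Themis (45.0), Lat (47.6), Trat1 (56.4), Cd8b1 (57.5), Bcl10 (64.7), Cd2 (64.8) and Cd8a (92.0). None of these 9 shared more than 2.71% of its exon bases with another gene. Why the counts of such well-known T cell genes were few was not found, so these 9 values are poor measures of transcript level and are imprecise between replicates.

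Levels of the 41 genes were compared per kilobase of exon. The highest in WT naive cells was Lck, at 309.9 ± 37.1 CPM per kilobase (SD, n = 4), ahead of the second Src kinase gene, Fyn, at 139.7 ± 5.28. They were followed by Dgka (114 ± 7.37), Ptpn6 (103 ± 5.84), Csk (99.5 ± 3.01), Plcg1 (83.9 ± 4.47) and Dgkz (82.6 ± 4.36). Ptpn6 and Csk lay within 1 SD of each other, as did Plcg1 and Dgkz. Zap70, the kinase that reads the phosphorylated chains, was at 41.1 ± 3.07, close to the ubiquitin ligase gene Cbl at 41.6 ± 2.71. At the bottom were the adaptor gene Themis (0.461 ± 0.213) and the costimulatory receptor gene Cd28 (0.157 ± 0.0877), both with few counts. Cd3g, just over the cutoff for few counts, was at 3.13 ± 0.803, against 52.1 ± 5.44 for Cd3e. The order is therefore one of these counts and may not be that of transcript levels.

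**Figure D1:**
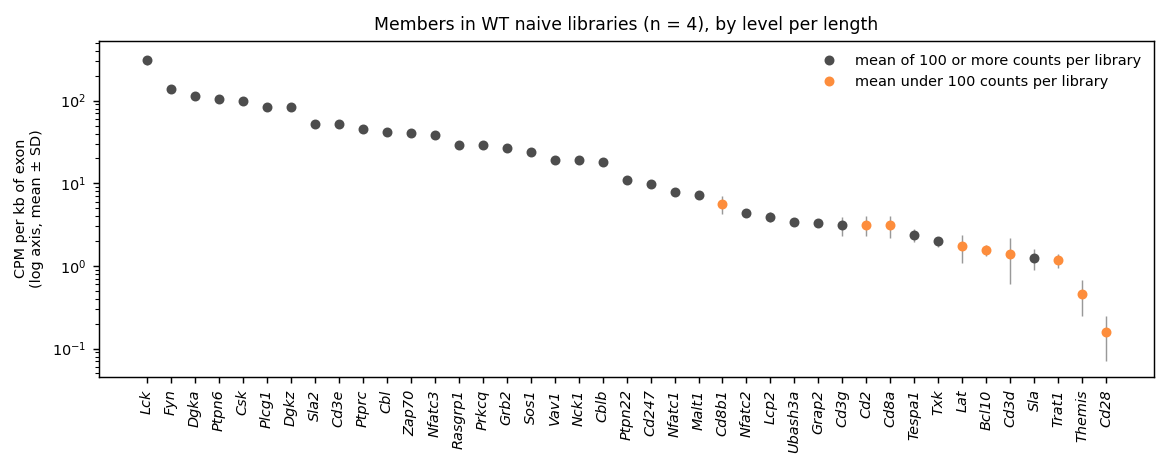
Level of each of the 41 genes in WT naive cells, as CPM per kilobase of exon on a log axis (mean ± SD, n = 4), ordered from high to low. Lck stands at the left at 309.9 and Cd28 at the right at 0.157; orange points are the 9 genes with a mean under 100 counts per library, all of which are at 5.56 or less.

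Comparing KO with WT libraries asks which steps of the cascade differ in transcript level when both Dot1l alleles are floxed. Differences are log2 fold changes ± standard error from edgeR, and a gene was called where its p, adjusted over all 10296 tested genes, was under 0.05. In thymus 10 of the 41 genes were lower in KO cells and 0 higher, against 6.77% lower and 11.9% higher over all tested genes (18.6% in either direction). In naive cells 7 were lower and 1 higher (all genes 7.11% and 11.1%, together 18.2%). In memory cells 11 were lower and 1 higher (all genes 9.32% and 12.8%, together 22.2%). The members called lower thus made up 24.4%, 17.1% and 26.8% of the 41 in the 3 subsets, while over all genes more were higher than lower. Over the 41 genes the median log2 fold change was -0.16 for thymus, -0.03 for naive and -0.05 for memory cells, and over all tested genes 0.02, 0.00 and 0.01. Apart from the test, every KO library was under every WT library for 17 (thymus), 8 (naive) and 13 (memory) of the 41 genes, compared with 11.1%, 8.25% and 11.9% of all genes. Every KO library was over every WT library for 1, 1 and 2 of them (17.3%, 11.9% and 14% of all genes). In bulk RNA, fewer cells that express a gene and less RNA of it per cell cannot be told apart.

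Across the subsets 4 genes were called lower in all 3 (Cd247, Grap2, Dgka and Cblb), 9.76% of the 41 against 1.97% of all tested genes. A further 5 were lower in 2 subsets (Cd8b1, Plcg1, Ptprc, Prkcq and Tespa1), 6 in 1 (Cd8a, Zap70, Sos1, Ptpn6, Ptpn22 and Malt1), 1 was higher in 2 (Cbl), and 25 were called in none. Of the 41, 15 were lower in at least 1 subset, compared with 15% of all tested genes. Among all tested genes 21.5% were higher in at least 1 subset, and 4.09% were higher in all 3, as were 0 of the 41. Scaling libraries by their mean log level shifted the median of all genes to -0.09, -0.11 and -0.10, and then 21, 10 and 15 of the 41 genes were lower and 0 higher. Over all genes that scaling turned the split from 1222 higher and 697 lower to 886 and 1342 in thymus, from 1147 and 732 to 886 and 1612 in naive and from 1323 and 960 to 1019 and 1812 in memory cells. The thymus total was also the least firm, at 6 genes without WT replicate 1 and 5 without WT replicate 2. Counts over all genes without those libraries are not given here.

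**Figure D2:**
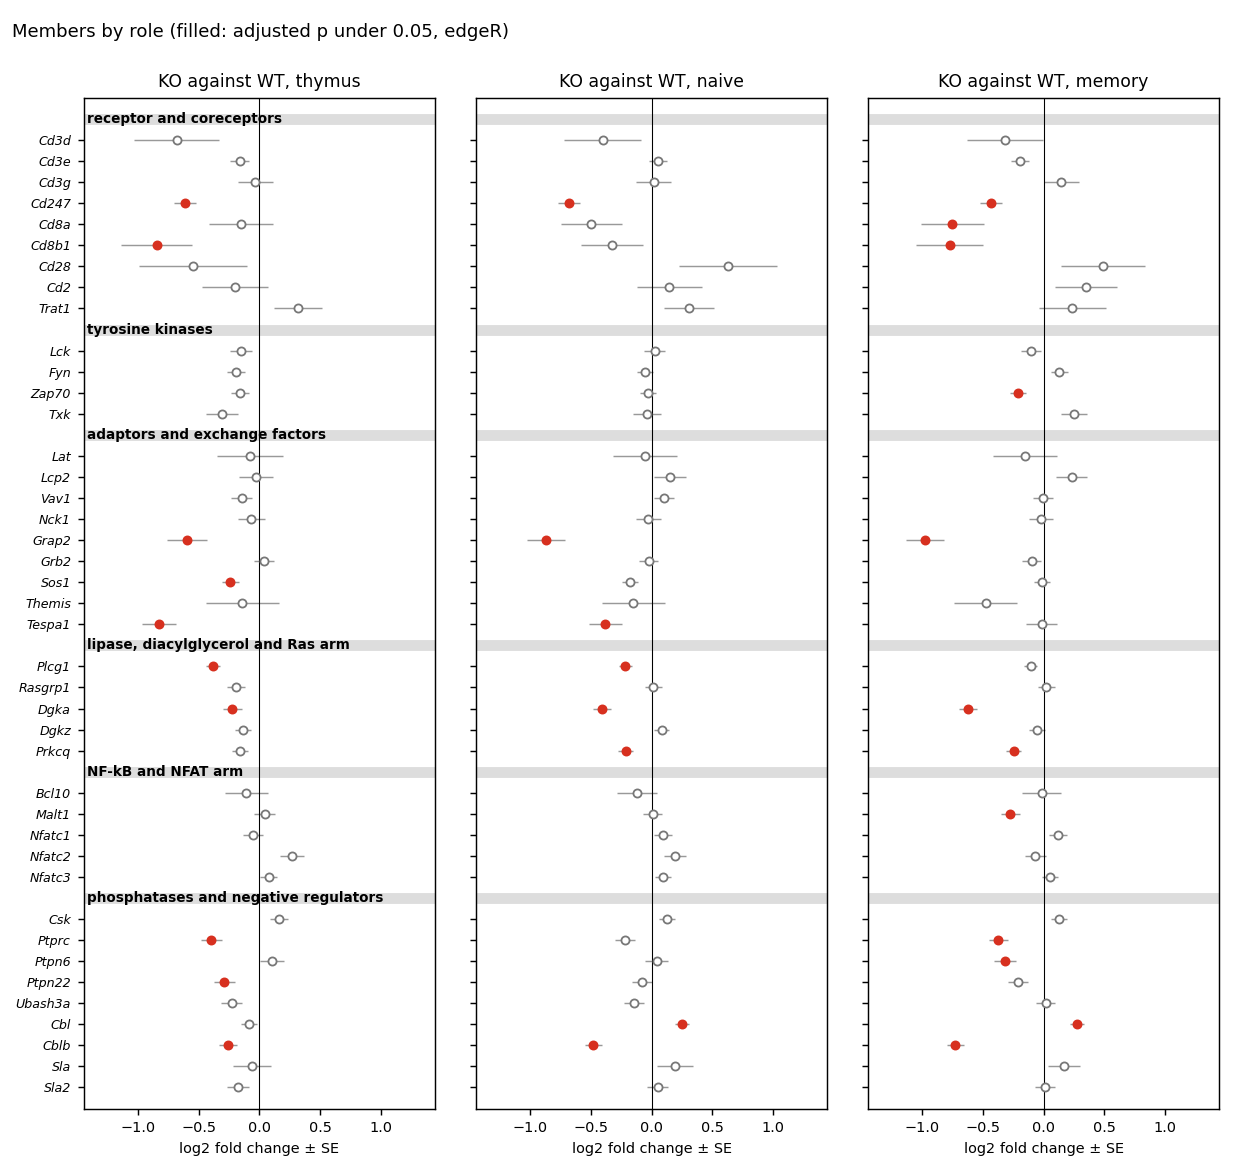
Log2 fold change ± standard error of each of the 41 genes in KO against WT cells, 1 panel per subset, grouped by role in the cascade; filled red points have an adjusted p under 0.05 (edgeR). Every red point lies left of 0 except Cbl in naive (0.25) and memory cells (0.28), and the Cd247, Grap2, Dgka and Cblb points are red in all 3 panels.

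At the receptor itself, the difference that held in all 3 subsets was in Cd247, which encodes the zeta chain, the receptor's longest signalling tail. In thymus Cd247 was at 52.3, 49.0 and 45.8 CPM in the 3 WT libraries and 32.8, 31.5, 32.7 and 30.9 in the 4 KO libraries. In naive cells the WT libraries were at 50.2, 52.4, 53.8 and 52.0 and the KO libraries at 31.4, 33.1, 36.2 and 29.8. In memory cells they were at 48.3, 40.3, 43.9 and 37.3 and 32.8, 31.1, 32.0 and 29.5. Every KO library lay under every WT library of its subset, and the Het libraries spanned 43.8 to 54.2, 46.6 to 51.8 and 33.6 to 43.4, all above the KO libraries of the same subset. The log2 fold changes were -0.61 ± 0.09 (adjusted p = 3.19e-06) for thymus, -0.68 ± 0.09 (adjusted p = 1.14e-07) for naive and -0.43 ± 0.09 (adjusted p = 1.68e-04) for memory cells. Of the exon bases of Cd247 (chr1:165788681-165877277, plus strand, GRCm38), 56.4% overlap Pou2f1 on the opposite strand. How reads in the shared bases were counted is not known, because whether the counting used strand is not given in the sources used here. Pou2f1, which encodes the transcription factor Oct-1, was itself at -0.08 ± 0.07 in thymus (adjusted p = 0.514), -0.37 ± 0.07 in naive (adjusted p = 5.54e-05) and -0.23 ± 0.07 in memory cells (adjusted p = 0.0118). The part of this overlap in the Cd247 values was not tested.

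The CD3 chains did not pass the test in any subset. Cd3e, the epsilon chain gene and the CD3 gene with by far the most counts, was at 320.2, 280.4 and 309 CPM in WT and 249, 292, 268 and 274 in KO thymus. It was at 230.0, 214, 181 and 225 against 233, 242, 199.6 and 208 in naive cells and at 234, 192, 195 and 218 against 188, 179, 177 and 190.2 in memory cells. The groups overlapped in thymus and naive cells, and in memory cells the highest KO library lay just under the lowest WT library. Its fold changes were -0.16 ± 0.08 (adjusted p = 0.167) in thymus, 0.05 ± 0.07 (adjusted p = 0.707) in naive and -0.19 ± 0.07 (adjusted p = 0.0571) in memory cells. The memory value is near the threshold and was called in 9 of the 18 alternatives. They were the fits with mean log scaling (0.00277), the stricter filter (0.0473), the replicate block (0.0374), a sex term (0.00980), only the libraries compared (0.0263) or the replicate block in only the libraries compared (0.00867) and without WT replicates 2 (0.0321) or 3 (0.0272) or KO replicate 4 (0.0450), where the adjusted p stands in brackets. In thymus Cd3e was called with mean log scaling (0.0172). Cd3g, with a mean of 115 counts, was at -0.04 ± 0.14, 0.02 ± 0.14 and 0.15 ± 0.14, and Cd3d at -0.68 ± 0.35, -0.40 ± 0.32 and -0.32 ± 0.32, with overlapping groups in all 3 subsets for both.

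Both CD8 coreceptor genes were lower in KO memory cells, on few counts. Cd8a, the alpha chain gene, was at 8.00, 7.85, 6.15 and 11.2 CPM in WT and 4.94, 6.09, 3.55 and 5.50 in KO memory libraries, with no overlap (-0.75 ± 0.26, adjusted p = 0.0355). Cd8b1, the beta chain gene, was at 5.28, 3.79, 5.93 and 7.44 against 3.33, 3.28, 2.26 and 4.65, with overlap (-0.77 ± 0.28, adjusted p = 0.0380). In thymus Cd8b1 was at 5.33, 6.04 and 6.12 in WT and 3.72, 2.65, 2.88 and 3.91 in KO libraries and fell without overlap (-0.85 ± 0.29, adjusted p = 0.0377). Thymus Cd8a was at 9.19, 9.88 and 10.9 and 7.85, 9.47, 7.76 and 10.8 (-0.15 ± 0.26, adjusted p = 0.774). Within thymus libraries there were thus 58.5 ± 2.46 Cd8b1 CPM per 100 of Cd8a in WT (SD, n = 3) and 37.1 ± 7.97 in KO cells (n = 4). Naive libraries scattered widely, with Cd8a at 7.15, 14.8, 13.3 and 9.94 in WT and 9.79, 12.6, 5.81 and 4.72 in KO cells (-0.50 ± 0.25, adjusted p = 0.196). Naive Cd8b1 was at 6.28, 9.07, 10.7 and 6.91 and 6.33, 11.2, 4.95 and 4.47 (-0.33 ± 0.26, adjusted p = 0.455). None of these 3 calls was firm. That of Cd8a in memory cells was lost with no filter (0.0731) and without WT replicates 1 (0.0510), 2 (0.0514) or 4 (0.158) or KO replicates 1 (0.0754) or 3 (0.128), with the adjusted p in brackets. That of Cd8b1 in memory cells was lost without WT replicates 1 (0.0510), 3 (0.0679) or 4 (0.162) or KO replicates 1 (0.0746), 2 (0.0647) or 3 (0.145). That of Cd8b1 in thymus was lost with the replicate block (0.0527) and without WT replicates 1 (0.0565), 2 (0.111) or 3 (0.1001) or KO replicates 2 (0.109) or 3 (0.0932).

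The costimulatory receptor gene Cd28, the adhesion receptor gene Cd2 and Trat1, which encodes a receptor-associated transmembrane adaptor, were not called. Their fold changes in thymus, naive and memory cells were -0.55, 0.63 and 0.49 for Cd28, -0.20, 0.15 and 0.35 for Cd2, and 0.32, 0.31 and 0.24 for Trat1. All 3 had few counts and overlapping groups, so that only large changes in them would be called.

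Among the tyrosine kinases, 1 of 12 values passed the test (18.6%, 18.2% and 22.2% of all genes called in the 3 subsets). Lck, the kinase that starts the cascade, was at 1104, 949 and 937 CPM in WT and 901, 921, 869.6 and 891 in KO thymus (-0.15 ± 0.09, adjusted p = 0.263), where every KO library lay under every WT library. In naive cells it was at 1045, 934, 859.5 and 792 in WT and 1035, 1032, 814 and 811 in KO libraries (0.02 ± 0.08, adjusted p = 0.892). In memory cells it was at 1096, 1119.9, 1053 and 981 and 1009, 1120.2, 868 and 952 (-0.11 ± 0.08, adjusted p = 0.426). Both splenic subsets overlapped.

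Zap70, which docks on the phosphorylated chains, fell in memory cells, from 154, 166, 163 and 154 CPM in WT to 134, 143, 133 and 141 in KO libraries with no overlap (-0.21 ± 0.07, adjusted p = 0.0161). That call was lost without WT replicate 2 (0.0542). Zap70 was at 142, 141 and 147 in WT and 123, 133, 119 and 139 in KO thymus, again without overlap (-0.16 ± 0.07, adjusted p = 0.127), and was called there with mean log scaling (0.00830). It was at 127, 123, 131 and 110.0 and 119, 121, 128 and 113 in naive cells, where the groups overlapped (-0.03 ± 0.07, adjusted p = 0.841). The Src kinase gene Fyn was at -0.19 ± 0.07 in thymus (adjusted p = 0.0655), -0.05 ± 0.07 in naive and 0.13 ± 0.07 in memory cells. The Tec family kinase gene Txk was at -0.31 ± 0.13, -0.04 ± 0.12 and 0.25 ± 0.11. None of these 6 values was called.

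Of the adaptors and exchange factors, Grap2 showed the largest fall that held in all 3 subsets. It encodes Gads, the adaptor that ties Lcp2 to Lat. In thymus Grap2 was at 16.4, 16.4 and 12.8 CPM in WT and 11.7, 9.73, 8.44 and 10.7 in KO libraries. In naive cells the values were 18.8, 22.4, 21.6 and 18.8 in WT and 11.99, 14.3, 10.5 and 8.12 in KO, and in memory cells 15.9997, 14.2, 18.9 and 14.6 and 6.78, 9.18, 8.82 and 7.47. No KO library reached the lowest WT library of its subset, and the KO mean was 66.7%, 55.1% and 50.6% of the WT mean. The fold changes were -0.60 ± 0.16 (adjusted p = 0.00749) in thymus, -0.87 ± 0.15 (adjusted p = 3.30e-05) in naive and -0.98 ± 0.16 (adjusted p = 3.95e-06) in memory cells, and the thymus call was lost without WT replicate 2 (0.0587). Het libraries spanned 12.8 to 18.7, 13.8 to 20.4 and 13.7 to 21.0 CPM, and their lowest naive library lay under the highest KO naive library.

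Tespa1, an adaptor that supports calcium and ERK signals in developing thymocytes, was lower in KO cells in 2 subsets. It was at 22.8, 20.3 and 18.6 CPM in WT and 11.98, 13.9, 10.5 and 9.97 in KO thymus libraries (-0.83 ± 0.14, adjusted p = 1.85e-05), without overlap. In naive cells it was at 11.3, 14.4, 17.5 and 15.9 and 14.1, 11.9, 9.35 and 10.6, with overlap (-0.38 ± 0.14, adjusted p = 0.0436). Memory Tespa1 was at 14.6, 14.96, 16.02 and 16.9 and 16.95, 16.4, 13.5 and 14.8 (-0.02 ± 0.13, adjusted p = 0.957). The WT level was highest in thymus, at 20.6 ± 2.08 CPM (SD, n = 3) against 14.8 ± 2.66 in naive cells (n = 4), whereas the KO levels were 11.6 ± 1.77 and 11.5 ± 2.03 (n = 4 each). The fold changes of naive and thymus cells were not shown to differ (0.44 ± 0.20, adjusted p = 0.195). The naive call was lost in 10 of 18 alternatives. They were the fits with no filter (0.0680), a sex term (0.0504), only the libraries compared (0.0920) or the replicate block in only the libraries compared (0.0933) and without WT replicates 2 (0.0540), 3 (0.178) or 4 (0.0968) or KO replicates 2 (0.0605), 3 (0.175) or 4 (0.119).

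Sos1, which encodes an exchange factor that activates Ras, fell in thymus from 329 ± 11.5 CPM in WT (SD, n = 3) to 279 ± 16.7 in KO libraries (n = 4; -0.24 ± 0.07, adjusted p = 0.0123). That call was lost without WT replicate 2 (0.0753). Sos1 was at -0.18 ± 0.07 in naive cells (adjusted p = 0.0586) and -0.01 ± 0.07 in memory cells. Lat, the scaffold on which the others assemble, had 13 to 95 counts per library. It was at 5.33, 5.52 and 4.48 CPM in WT and 4.41, 5.89, 2.75 and 6.38 in KO thymus. In the spleen it was at 2.81, 6.00, 6.63 and 3.77 against 5.49, 6.79, 3.44 and 3.48 in naive cells and at 4.66, 3.14, 4.499 and 5.38 against 3.87, 3.66, 2.87 and 6.06 in memory cells. The groups overlapped in each subset, and the fold changes of -0.08 ± 0.28, -0.05 ± 0.27 and -0.15 ± 0.26 were not called; at these counts a small change of Lat would not be detected. Lcp2, the partner that Grap2 joins to Lat, was at -0.03 ± 0.14, 0.15 ± 0.13 and 0.23 ± 0.13 and was not called. The other 4 genes of the group, the exchange factor gene Vav1, the adaptor genes Nck1 and Grb2 and the thymocyte selection gene Themis, were not called either. Their fold changes ran from -0.48 (Themis in memory cells, on few counts) to 0.10 (Vav1 in naive cells).

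The lipase and diacylglycerol arm had falls in the lipase, a kinase that removes its product and a kinase that reads it. Plcg1, the phospholipase gene, fell in thymus from 699, 672 and 635 CPM in WT to 483, 511, 555 and 499 in KO libraries (-0.38 ± 0.06, adjusted p = 2.95e-06). In naive cells it fell from 696, 682, 626 and 632 to 559.6, 575, 562 and 575 (-0.21 ± 0.05, adjusted p = 0.00318). Neither subset had overlap. In memory cells it was at 588 ± 20.7 and 547 ± 21.3 (SD, n = 4 each), with overlap (-0.11 ± 0.05, adjusted p = 0.182). Prkcq, the gene of protein kinase C theta, fell in naive (-0.21 ± 0.06, adjusted p = 0.0116) and memory cells (-0.25 ± 0.06, adjusted p = 0.00222) and was at -0.16 ± 0.07 in thymus (adjusted p = 0.0922). The naive call was lost with no filter (0.0703) and without KO replicate 4 (0.0648). Rasgrp1, which brings diacylglycerol to Ras, was not called, at -0.20 ± 0.07 in thymus (adjusted p = 0.0570), 0.02 ± 0.07 in naive and 0.02 ± 0.07 in memory cells.

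Of the genes of diacylglycerol kinases, which turn the messenger into phosphatidic acid, Dgka fell in all 3 subsets. It was at 378, 363 and 347 CPM in WT and 338, 302, 309 and 293 in KO thymus. In naive cells it was at 571, 570.2, 516 and 505 in WT and 409, 417, 384 and 421 in KO libraries, and in memory cells at 461, 479, 453 and 446 and 296, 327, 279.8 and 289.7. The groups did not overlap in any subset, and the fold change was -0.22 ± 0.08 (adjusted p = 0.0461) in thymus, -0.41 ± 0.07 (adjusted p = 6.03e-05) in naive and -0.63 ± 0.07 (adjusted p = 1.15e-08) in memory cells. The thymus call had the highest adjusted p of the 4 genes lower throughout. It was lost with RLE scaling (0.0602), estimates that were not robust (0.0560) or DESeq2 (0.0645) and without WT replicates 1 (0.176), 2 (0.116) or 3 (0.0558) or KO replicates 2 (0.102), 3 (0.0779) or 4 (0.126). Dgkz was not called in any subset (-0.14 ± 0.07, 0.08 ± 0.06 and -0.05 ± 0.06). Within a library, which removes the scaling between libraries, there were 104 ± 6.49 Dgka CPM per 100 of Dgkz in WT naive and 74.3 ± 3.15 in KO naive cells (SD, n = 4 each). In memory cells the ratios were 86.2 ± 0.732 and 58.0 ± 3.92, and in thymus 60.1 ± 4.03 (n = 3) and 56.7 ± 6.53 (n = 4).

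The promoters of 3 of the 4 genes that were called lower in all subsets are printed, as the 250 bases before the RefSeq start site (GRCm38.p6), 5′ to 3′ on the gene's own strand. Cd247 lies at chr1:165788431-165788680 (plus strand), Grap2 at chr15:80623233-80623482 (plus strand) and Dgka at chr10:128745085-128745334 (minus strand). Capitals mark a match to 1 of 3 short motifs of factors at work in T cells, searched on both strands: GGAAG (ETS family), TGTGGT (RUNX) and CTTTGA (TCF/LEF).
Cd247: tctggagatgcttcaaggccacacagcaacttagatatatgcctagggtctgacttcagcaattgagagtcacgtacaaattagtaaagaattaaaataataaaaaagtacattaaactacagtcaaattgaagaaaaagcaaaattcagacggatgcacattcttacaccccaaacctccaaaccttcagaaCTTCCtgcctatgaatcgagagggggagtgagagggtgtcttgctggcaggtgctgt
Grap2: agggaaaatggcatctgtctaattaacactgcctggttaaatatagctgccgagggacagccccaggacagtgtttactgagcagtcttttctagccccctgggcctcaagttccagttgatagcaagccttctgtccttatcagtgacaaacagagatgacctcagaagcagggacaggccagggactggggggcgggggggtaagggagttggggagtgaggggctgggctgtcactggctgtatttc
Dgka: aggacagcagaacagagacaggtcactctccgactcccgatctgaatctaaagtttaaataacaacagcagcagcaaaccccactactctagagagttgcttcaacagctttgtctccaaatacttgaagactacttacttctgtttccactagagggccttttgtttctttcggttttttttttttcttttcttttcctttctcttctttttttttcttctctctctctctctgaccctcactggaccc
The Cd247 window held 1 ETS match and no RUNX or TCF/LEF match, and the Grap2 window and the Dgka window printed held none of the 3 motifs. The other 3 Dgka windows, not printed, held 2, 3 and 1 ETS matches, the first of them also 1 TCF/LEF match, and 10, 25 and 11 CG pairs. Of 32851 promoter windows of this length, 64.1% held the ETS motif, 14.0% the RUNX and 13.8% the TCF/LEF motif, so these matches are descriptions and say nothing of a factor. The printed windows held 3, 2 and 3 CG pairs, compared with a median of 6 over all windows (quartiles 2 and 16). The Grap2 start site used lies 50889 bases inside the GENCODE gene, and of 4 Dgka promoters the one nearest the GENCODE start was taken, 229 bases from it. The windows of Cblb and Cbl, which held 1 ETS match each and 14 and 33 CG pairs, overlap an annotated untranslated region and are not shown.

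In the NF-kB and NFAT arm, 1 of 15 values passed the test (18.6%, 18.2% and 22.2% of all genes called in the 3 subsets). Malt1, the gene of the protease that works with Bcl10 downstream of protein kinase C theta, fell in memory cells. It went from 172, 177, 188 and 183 CPM in WT to 139, 148, 150.2 and 159 in KO libraries, without overlap (-0.27 ± 0.08, adjusted p = 0.00699). Malt1 was at 0.04 ± 0.09 in thymus and 0.01 ± 0.08 in naive cells. None of the NFAT genes was called. Nfatc2 was at 34.4 ± 0.604 CPM (SD, n = 3) in WT and 41.5 ± 4.14 (n = 4) in KO thymus, with every KO library above every WT library (0.27 ± 0.10, adjusted p = 0.0554). It was at 0.20 ± 0.09 in naive and -0.07 ± 0.09 in memory cells. Nfatc1 was between -0.06 and 0.12 and Nfatc3 between 0.05 and 0.10 in the 3 subsets, and Bcl10, on few counts, between -0.12 and -0.02.

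Among the phosphatases and negative regulators, the related ubiquitin ligases Cblb and Cbl went in opposite directions in the spleen. Cblb, which raises the threshold for activation by tagging signalling proteins, was at 134, 124 and 126 CPM in WT and 109, 115, 110.4 and 93.0 in KO thymus. In naive cells it was at 178, 189, 193 and 193 in WT and 129, 146, 143 and 123 in KO libraries, and in memory cells at 216, 214, 205 and 203 and 128, 129.7, 133 and 115. No KO library reached a WT library in any subset, and the Het libraries (106 to 129.8, 171 to 183 and 206 to 219) overlapped the KO libraries in thymus alone. That overlap rested on Het thymus replicate 4, at 106, with the other Het thymus libraries at 123 or more. The falls were -0.26 ± 0.07 (adjusted p = 0.00853) in thymus, -0.48 ± 0.07 (adjusted p = 5.05e-07) in naive and -0.73 ± 0.07 (adjusted p = 1.28e-11) in memory cells. The last is the lowest adjusted p of the 41 genes in the 3 KO against WT comparisons. The thymus call was lost with the replicate block in only the libraries compared (0.0681) and without WT replicate 1 (0.0557) or KO replicate 4 (0.0591).

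Cbl, the paralog that also tags activated kinases for destruction, was at 556, 509, 474 and 513 CPM in WT and 621, 593, 624 and 603 in KO naive libraries. In memory libraries it was at 531, 545, 545 and 529 and 603, 645, 687 and 668. Every KO library was above every WT library in both, and Cbl rose (0.25 ± 0.06, adjusted p = 0.00145, and 0.28 ± 0.06, adjusted p = 3.41e-04). With mean log scaling neither was called (0.13, adjusted p = 0.147, and 0.16, adjusted p = 0.0586). In thymus it was at 563, 566 and 536 in WT and 516, 483, 539 and 554 in KO cells, with overlap (-0.09 ± 0.06, adjusted p = 0.409). Measured within libraries, there were 36.9 ± 3.5999 Cblb CPM per 100 of Cbl in WT naive and 22.2 ± 1.95 in KO naive cells (SD, n = 4 each). In memory cells the ratios were 38.9 ± 1.34 and 19.5 ± 1.67, and neither subset had overlap between WT and KO. In thymus the ratios were 23.1 ± 1.03 (n = 3) and 20.6 ± 2.90 (n = 4) and overlapped.

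**Figure D3:**
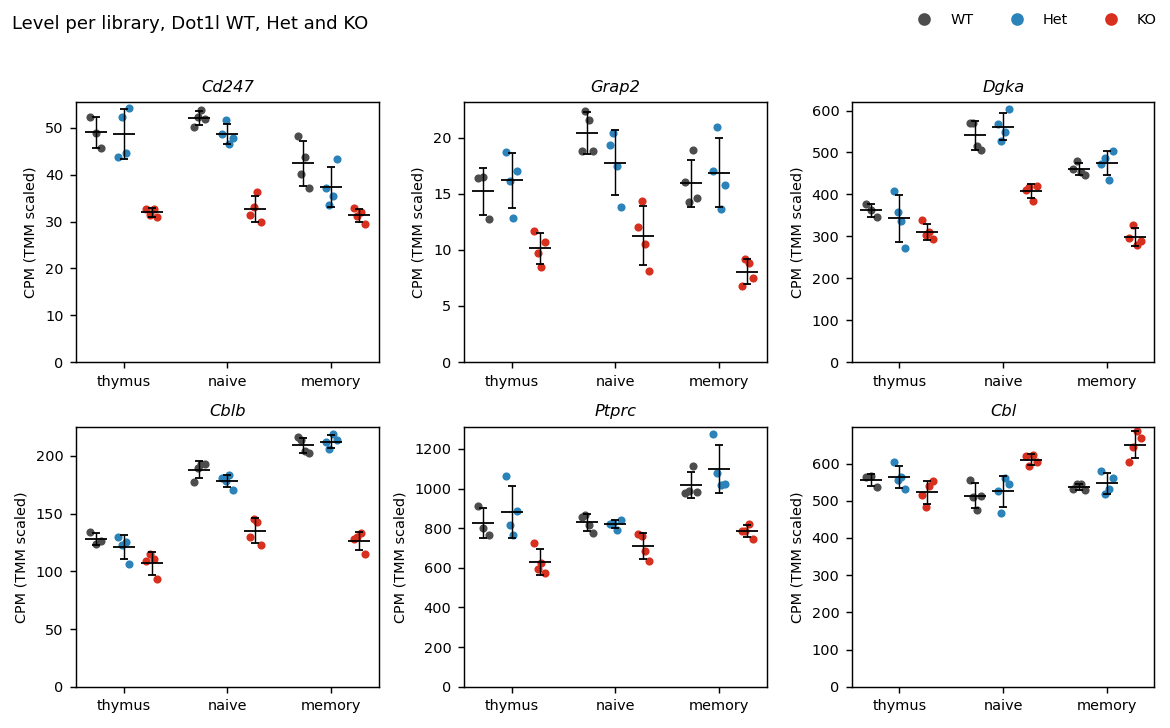
Level in every library, as TMM-scaled CPM, of the 4 genes lower in all 3 subsets (Cd247, Grap2, Dgka, Cblb) and of Ptprc and Cbl; points are libraries, bars mean ± SD (n = 4, WT thymus n = 3), colours the genotypes. KO points of Cd247, Grap2, Dgka and Cblb lie under all WT points of the same subset, and those of Cbl lie over them in naive and memory cells, for example 603 to 687 against 529 to 545 in memory cells.

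Phosphatase genes were mixed. Ptprc, which encodes CD45, the phosphatase that keeps Lck ready, fell in thymus from 912, 803 and 768 CPM in WT to 724, 592, 623 and 576 in KO libraries (-0.40 ± 0.09, adjusted p = 8.90e-04). In memory cells it fell from 979, 989, 1114 and 982 to 787, 788, 819.5 and 746 (-0.37 ± 0.08, adjusted p = 5.45e-04). In naive cells it was at 855, 867, 817 and 776.7 and 771, 762, 684 and 633, also without overlap but just short of the threshold (-0.22 ± 0.08, adjusted p = 0.0571). Ptpn6, the gene of SHP-1, fell in memory cells from 424, 404, 401 and 398 to 339, 381, 290.1 and 294 (-0.32 ± 0.09, adjusted p = 0.00839) and was at 0.10 ± 0.10 in thymus and 0.04 ± 0.09 in naive cells. Ptpn22, which dephosphorylates Lck and Zap70, fell in thymus from 55.8 ± 3.33 (SD, n = 3) to 45.5 ± 5.20 (n = 4; -0.29 ± 0.09, adjusted p = 0.0184). That call was lost with the replicate block in only the libraries compared (0.120) and without WT replicates 1 (0.0930) or 2 (0.0607) or KO replicates 1 (0.0634) or 4 (0.0830). Ptpn22 was at -0.21 ± 0.08 in memory cells (adjusted p = 0.0565).

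The remaining brakes were not called. Csk, the kinase that switches Lck off, was at 0.16 ± 0.07, 0.13 ± 0.07 and 0.13 ± 0.07 in thymus, naive and memory cells. The phosphatase gene Ubash3a was at -0.23 ± 0.09 (adjusted p = 0.0554), -0.15 ± 0.08 and 0.02 ± 0.08. The Src-like adaptor genes Sla and Sla2 lay between -0.17 (Sla2 in thymus) and 0.19 (Sla in naive cells). Sla2 shares 23.6% of its exon bases with Rab5if on the opposite strand, which had a mean of only 25.9 counts per library.

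**Figure D4:**
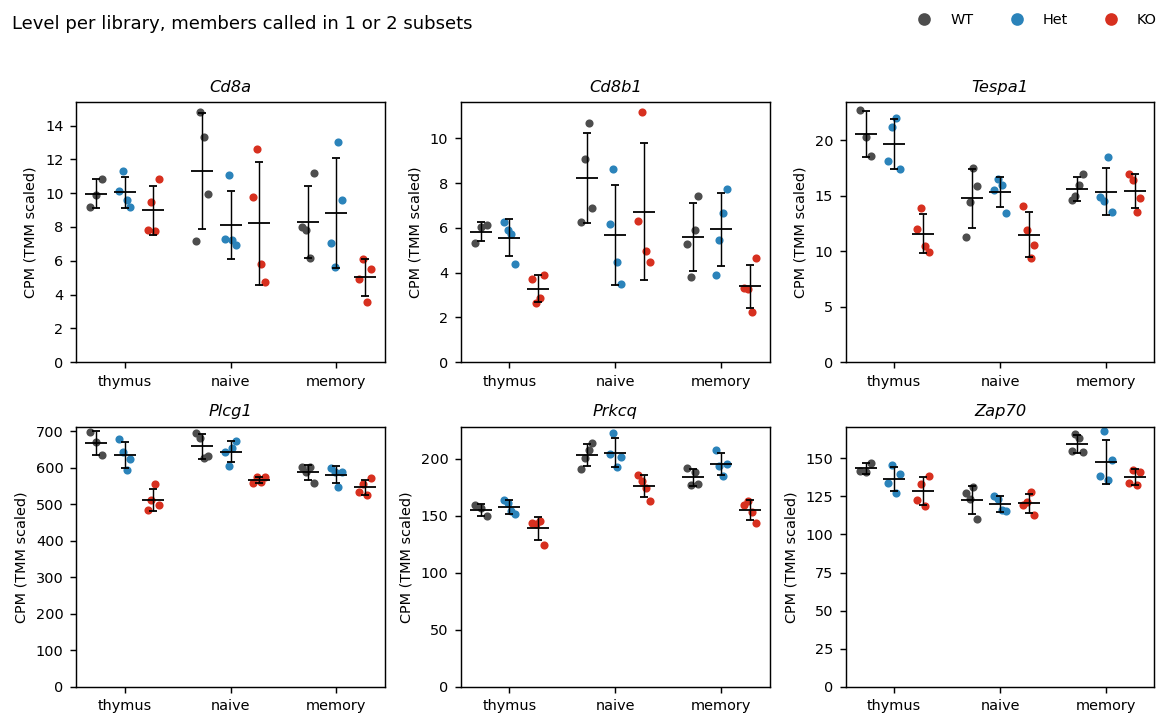
Level in every library, as TMM-scaled CPM, of Cd8a, Cd8b1, Tespa1, Plcg1, Prkcq and Zap70, which were lower in KO cells in 1 or 2 subsets; points are libraries, bars mean ± SD (n = 4, WT thymus n = 3). KO and WT points of Tespa1 separate in thymus (9.97 to 13.9 against 18.6 to 22.8) and overlap in memory cells, and the Cd8a and Cd8b1 points of naive cells scatter over both genotypes.

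Summed levels of marker genes of other cells moved with genotype in some subsets, and their part in these results was not tested. The summed level of 8 genes of CD4 CD8 double positive thymocytes, 5 of them tested, was 22.0 to 34.8 CPM in KO and 13.3 to 21.2 in WT thymus, with Cd4 at no more than 0.266 CPM in any library. The sum of 5 CD4 T cell genes, 3 of them tested, was lower in KO than in WT thymus (3.30 to 4.60 against 9.18 to 10.3) and higher in KO than in WT memory cells (13.9 to 25.1 against 6.28 to 8.93). That sum rests largely on Zbtb7b and Izumo1r, which reached 24.8 and 9.85 CPM in a library. Cd4, Cd40lg and Foxp3 reached at most 0.266, 0.0923 and 1.53, so the list did not move as a whole. The sum of 12 B cell genes, 10 of them tested, ranged from 13.0 to 263 CPM in KO naive, 14.9 to 113 in WT naive, 15.2 to 76.5 in KO memory and 17.8 to 171 in WT memory libraries, so that the groups overlapped. Sums of natural killer genes stayed at or under 0.800 CPM in every library, with none of the 6 genes tested. Myeloid sums reached at most 11.2 CPM and gamma-delta T cell sums 5.55, each in KO naive cells. In thymus the B cell sums were 15.5 to 26.0 in KO and 7.85 to 17.3 in WT libraries. The 8 markers of CD8 T cells themselves, 5 of which are among the 41 genes here, summed to 553 to 583 CPM in KO and 583 to 680.0 in WT thymus. The KO and WT sums were 445 to 490.1 and 455 to 526.2 in naive, and 375 to 423 and 426 to 517 in memory cells.

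The Het libraries ask whether 1 floxed allele is enough to move the cascade. By edgeR 0 of the 41 genes were called in Het against WT cells in thymus, naive or memory cells (all genes 0%, 0% and 0.00971%), and DESeq2 also called 0 of the 41. At an unadjusted p under 0.05 there were 1, 1 and 0 of the 41, namely Sla2 in thymus and Cd8b1 in naive cells, against 6.18%, 2.67% and 5.12% of all genes. The median log2 fold change of the 41 genes was -0.02, -0.03 and 0.00. A missed threshold does not show that the genotypes were alike. In thymus, naive and memory cells the Het against WT fold changes were -0.00 ± 0.09, -0.10 ± 0.09 and -0.18 ± 0.09 for Cd247, 0.09 ± 0.16, -0.21 ± 0.15 and 0.08 ± 0.15 for Grap2. They were -0.08 ± 0.08, 0.06 ± 0.07 and 0.04 ± 0.07 for Dgka, and -0.08 ± 0.07, -0.08 ± 0.07 and 0.02 ± 0.07 for Cblb.

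Set against Het instead of WT, and so with the same KO libraries, 10 of the 41 genes were lower and 1 higher in thymus (all genes 7.28% and 11.9%, together 19.1%). In naive cells they were 7 and 4 (6.5% and 10.5%, together 16.9%) and in memory cells 10 and 1 (8.59% and 11.6%, together 20.2%). Grap2 was at -0.69, -0.67 and -1.06, Cd247 at -0.61, -0.58 and -0.26, and both were called in all 3 subsets. Dgka and Cblb were called in naive (-0.46 and -0.40) and memory cells (-0.67 and -0.75) but not in thymus (-0.14 ± 0.07, adjusted p = 0.188 and -0.18 ± 0.07, adjusted p = 0.0562). Het thymus replicates 1 to 4 were at 407, 357, 336 and 271 CPM for Dgka and 129.8, 123, 125 and 106 for Cblb. KO thymus libraries were at 293 to 338 and 93.0 to 115. Het replicate 4, the lowest for both genes, was also the library furthest from its group over all genes. In memory cells Zap70 (-0.10 ± 0.07, adjusted p = 0.329) and Ptpn6 (-0.23 ± 0.09, adjusted p = 0.0696) were not called against Het either, although both were called against WT. Genes called against Het that were not called against WT in the same subset were Txk (-0.35), Prkcq (-0.18) and Nfatc2 (0.26) in thymus, Cd28 (1.34), Nfatc1 (0.22) and Nfatc2 (0.30) in naive cells, and Ptpn22 (-0.32) in memory cells. Of these 7 calls, that of Ptpn22 held in all 18 alternatives. In thymus that of Txk was lost with only the libraries compared (0.0916) or the replicate block in only the libraries compared (0.109) and without Het replicates 2 (0.0734), 3 (0.129) or 4 (0.0704) or KO replicates 2 (0.103), 3 (0.144) or 4 (0.0732). That of Prkcq was lost with no filter (0.0543), only the libraries compared (0.0791) or the replicate block in only the libraries compared (0.0659) and without Het replicates 1 (0.0791) or 2 (0.0691) or KO replicate 4 (0.160). The thymus call of Nfatc2 was lost with mean log scaling (0.226), no filter (0.125), only the libraries compared (0.156) or the replicate block in only the libraries compared (0.123) and without Het replicates 1 (0.107), 3 (0.0569) or 4 (0.109) or KO replicates 1 (0.0577) or 2 (0.213), and its naive call with mean log scaling (0.136) and without Het replicate 4 (0.132) or KO replicates 2 (0.0526) or 3 (0.0711). That of Nfatc1 was lost with mean log scaling (0.316), no filter (0.168) or only the libraries compared (0.0665) and without Het replicates 2 (0.0652), 3 (0.0623) or 4 (0.117) or KO replicates 1 (0.0870), 2 (0.125) or 3 (0.0883). Cd28 rested on 1.01, 1.97, 2.58 and 1.08 CPM in KO and 0.589, 0.792, 0.709 and 0.460 in Het naive libraries and was lost without Het replicates 1 (0.0560) or 4 (0.0744) or KO replicates 2 (0.0587) or 3 (0.127). The memory call of Cd247 against Het was lost with no filter (0.120), only the libraries compared (0.0661) or the replicate block in only the libraries compared (0.106) and without Het replicates 1 (0.0567) or 4 (0.161) or KO replicates 2 (0.0568) or 4 (0.0748). Calls of Cd8b1 and Ptpn22 in thymus were lost in 7 and 6 of 18 alternatives, and that of Tespa1 in naive cells in 5. In memory cells those of Cd8a and Cd8b1 were lost in 4 each. Cbl and Plcg1 in naive cells lost theirs in 2 and 1, and Cbl in memory cells in 1. The counts moved by over 1.5 times in places: in thymus to 7 without Het replicate 1 or Het replicate 3, and in naive cells to 7 without Het replicate 4 or KO replicate 3. For these fits too, counts over all genes are not given here.

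Whether the KO against WT difference itself differs between subsets was tested by an interaction term. Between naive and thymus cells 1 of the 41 genes was called, Cbl, whose fold change was higher in naive cells (0.34 ± 0.09, adjusted p = 0.0117; 6.34% of all genes called, 3.01% higher and 3.33% lower). Between memory and naive cells edgeR and DESeq2 both called 0 of the 41 (1.79% of all genes by edgeR, 0.67% higher and 1.12% lower). At an unadjusted p under 0.05 there were 7 of the 41 between naive and thymus cells (18.5% of all genes), namely Cbl, Plcg1, Vav1, Rasgrp1, Dgkz and Tespa1, higher in the naive contrast, and Cblb, lower. Between memory and naive cells there were 6 (9.54% of all genes), namely Cd3e, Ptpn6, Cblb, Dgka, Malt1 and Nfatc2, all lower in the memory contrast and with adjusted p of 0.213 or more. With the replicate number as a block in only the libraries compared, Ptpn6 (-0.36, adjusted p = 0.0160) and Malt1 (-0.29, adjusted p = 0.0487) were called. From thymus to naive cells the difference was -0.22 ± 0.10 (adjusted p = 0.206) for Cblb and -0.18 ± 0.11 (adjusted p = 0.384) for Dgka. From naive to memory cells it was -0.25 ± 0.09 (adjusted p = 0.269) for Cblb and -0.22 ± 0.11 (adjusted p = 0.501) for Dgka, so no difference in the size of these falls passed the test.

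The cascade also varied between subsets in WT cells. From thymus to naive cells 10 of the 41 genes were higher and 10 lower (all genes 15.3% and 16.9%, together 32.2%). From naive to memory cells 10 were higher and 7 lower (7.68% and 7.38%, together 15.1%). The 2 comparisons share the naive libraries, and their tests do not use any pairing of libraries by replicate number. Of the 4 tyrosine kinases, Txk rose at both steps in WT cells, from 12.4, 13.7 and 11.6 CPM in thymus through 18.0, 20.8, 25.4 and 22.4 in naive to 24.5, 27.7, 30.2 and 27.8 in memory libraries (0.79 ± 0.13 and 0.33 ± 0.12). Fyn fell from 775 ± 21.7 (SD, n = 3) to 609 ± 23.0 and rose to 846 ± 27.4 (n = 4 each; -0.35 ± 0.07 and 0.47 ± 0.07), and Zap70 went the same way (-0.22 ± 0.07 and 0.38 ± 0.07). Lck was called at neither step.

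Trat1 had the largest difference between subsets of the 41 genes. It was at 6.52, 8.08 and 9.06 CPM in WT thymus, 5.85, 6.52, 5.49 and 4.08 in naive and 1.86, 0.739, 1.54 and 1.34 in memory libraries, the last below every naive library (-1.97 ± 0.25, adjusted p = 4.04e-08). The fall from naive to memory cells was of like size in KO (-2.04 ± 0.23) and Het cells (-1.95 ± 0.25), and few counts lay behind it, down to 8 in a library. The smaller fall from thymus to naive cells (-0.55 ± 0.21, adjusted p = 0.0447 in WT) was lost with mean log scaling (0.0699), the replicate block (0.0567), a sex term (0.0526) or the replicate block in only the libraries compared (0.103) and without WT thymus replicates 2 (0.109) or 3 (0.181) or WT naive replicates 3 (0.0742) or 4 (0.166). That in KO cells (-0.56 ± 0.19) was lost without KO naive replicate 3 (0.0716). Of the other receptor genes, Cd3e fell from thymus to naive cells in WT (-0.51 ± 0.08), KO (-0.30 ± 0.07) and Het (-0.46 ± 0.07). Cd8b1 was called in KO cells alone, higher in naive than thymus (1.03 ± 0.27) and lower in memory than naive cells (-1.02 ± 0.27), with WT values of 0.51 ± 0.28 and -0.58 ± 0.26. The fall was lost without KO naive replicate 2 (0.0817), and the difference between KO and WT was not called by the interaction test (0.52 ± 0.39, adjusted p = 0.525 and -0.44 ± 0.38, adjusted p = 0.866).

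In the NF-kB and NFAT arm 4 of 5 genes rose from thymus to naive WT cells (15.3% of all genes higher) and 3 of 5 from naive to memory WT cells (7.68%). In KO cells 4 and 2 of the 5 rose (22.4% and 8.69% of all genes) and in Het cells 3 and 3 (19.8% and 8.31%). In WT naive against thymus cells Dgka (0.58 ± 0.08), Cblb (0.56 ± 0.07) and Malt1 (0.55 ± 0.09) rose, with the same call in KO (0.39, 0.34 and 0.52) and Het cells (0.71, 0.56 and 0.50). Sos1 fell at both steps in WT (-0.38 ± 0.07 and -0.52 ± 0.07), as did Rasgrp1 (-0.40 ± 0.07 and -0.37 ± 0.07). From naive to memory cells Nfatc2 (0.66 ± 0.09) and the Src-like adaptor gene Sla (0.77 ± 0.14) rose, from 9.09, 9.07, 15.7 and 11.6 to 17.8, 20.4, 20.6 and 20.4 CPM for Sla. Its relative Sla2 fell (-0.42 ± 0.09), so that there were 6.97 ± 1.87 Sla CPM per 100 of Sla2 in WT naive and 16.2 ± 0.895 in WT memory cells (SD, n = 4 each).

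Ptpn6 dipped in naive cells. In WT libraries it was at 427, 399 and 431 CPM in thymus, 314, 282, 281 and 281 in naive and 424, 404, 401 and 398 in memory cells (-0.53 ± 0.10 and 0.49 ± 0.09), with no overlap of naive with either. KO libraries showed the first step (-0.59 ± 0.09) and in the second were at 0.13 ± 0.09 (adjusted p = 0.381). Malt1 rose from naive to memory cells in WT (0.48 ± 0.08) and was at 0.20 ± 0.08 in KO cells (adjusted p = 0.0724). The tests of those differences are the interaction values above. Over the 41 genes, KO cells had 14 higher and 8 lower from thymus to naive (all genes 22.4% and 21.7%, together 44.1%) and 9 and 9 from naive to memory (8.69% and 8.61%, together 17.3%). Het cells had 8 and 11 (19.8% and 19.7%, together 39.5%) and 13 and 6 (8.31% and 8.57%, together 16.9%). Mean log scaling shifted the WT, KO and Het splits from thymus to naive to 11 and 6, 16 and 5, and 9 and 8. Over all genes it shifted them from 1575 higher and 1744 lower to 1829 and 1485 in WT, from 2309 and 2234 to 2547 and 2038 in KO and from 2037 and 2030 to 2299 and 1766 in Het cells.

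**Figure D5:**
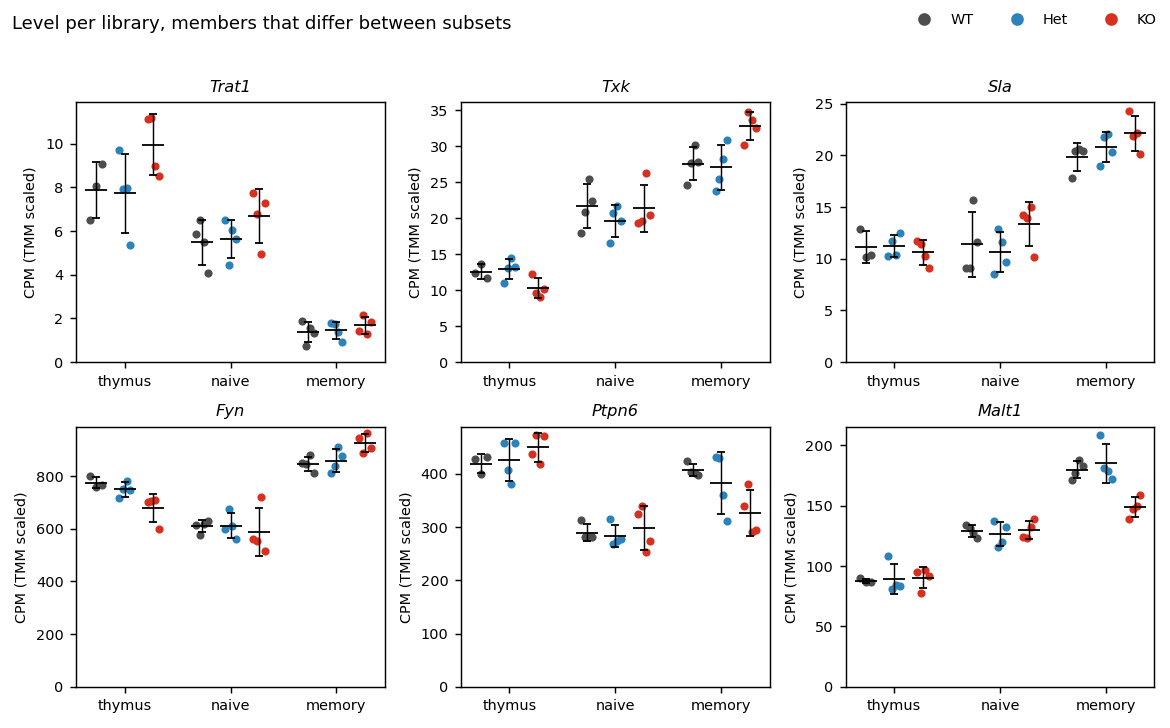
Level in every library, as TMM-scaled CPM, of Trat1, Txk, Sla, Fyn, Ptpn6 and Malt1 by subset; points are libraries, bars mean ± SD (n = 4, WT thymus n = 3), colours the genotypes. Trat1 is at 0.739 to 1.86 in WT, 0.940 to 1.78 in Het and 1.30 to 2.16 in KO memory libraries, the Txk means are higher in each later subset, and the KO memory points of Ptpn6 and Malt1 lie under the WT memory points.

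Beyond the 41 genes, a list of 84 further genes of the pathway, 82 of them tested, gives the setting. In KO against WT cells 8 were higher and 14 lower in thymus, which is 9.76% and 17.1% of the list (all genes 11.9% and 6.77%). In naive cells 12 were higher and 8 lower, 14.6% and 9.76% (all genes 11.1% and 7.11%). In memory cells they were 15 and 11, 18.3% and 13.4% (all genes 12.8% and 9.32%). The median log2 fold changes of the list in the 3 subsets were -0.08, 0.00 and -0.02. The list was drawn up with earlier results known. Fyb, the gene of an adaptor that binds Lcp2 and links the receptor to integrins, had the lowest adjusted p of the list in thymus (-1.21 ± 0.10, adjusted p = 3.86e-12) and naive cells (-1.05 ± 0.09, adjusted p = 1.35e-11). Fyb was also lower in memory cells (-1.32 ± 0.09, adjusted p = 9.71e-15). The inhibitory receptor genes Cd5 (-0.97 ± 0.14, -0.99 ± 0.15 and -1.81 ± 0.14) and Cd6 (-0.60 ± 0.11, -0.75 ± 0.10 and -1.50 ± 0.10) were called lower in all 3 subsets. Sos2, the paralog of Sos1, was higher in all 3 (0.75 ± 0.10, 0.65 ± 0.09 and 0.75 ± 0.09). Pak1, the gene of a kinase that acts downstream of Vav1 and Nck1, was higher in memory cells (1.39 ± 0.15, adjusted p = 1.85e-09) and was not called in thymus (-0.14 ± 0.14) or naive cells (0.33 ± 0.14).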

How the data were processed

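RNA of sorted CD8 T cells was sequenced as stranded mRNA libraries with single reads, per the labels' protocols, and the authors deposited raw counts per gene for 35 libraries. TopHat2 2.1.0, HTSeq 0.9.1 and the build GRCm38 (mm10) are named in the submitters' processing notes. Neither the annotation release nor whether strand was used in counting is given in the sources used here. How reads in bases shared by genes on opposite strands were counted is therefore not known. GENCODE M21 gave symbols to 52403 of 52636 genes, of which 19776 had at least 1 count. Library totals ran from 4809509 to 16879636 counts, which sets the precision of the genes with few counts.

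The 41 genes and the lists were chosen with earlier results of these data known. Groups were taken from the labels. All 35 libraries were fitted together with edgeR 4.0.16 (R 4.3.3, limma 3.58.1). The filterByExpr rule with its 9 groups left 10296 genes, and TMM factors ran from 0.927 to 1.07. Robust quasi-likelihood tests (26 residual degrees of freedom) were two-sided, with Benjamini-Hochberg adjustment over all tested genes and a threshold of 0.05. Adjusted p-values in all parts of the text are from that edgeR fit unless another tool is named. Standard errors were derived from the fold change and the F statistic. The code was tested on simulated data. Values in every library are given for genes called with a log2 fold change of at least 0.5 in a KO against WT comparison, and for Lck, Zap70, Lat, Cd247 and Cd3e. Further genes were added after their values were seen (Dgka, Cblb, Cbl, Plcg1, Ptprc, Ptpn6, Malt1 and some values between subsets). Genes of the wider list are those with the 4 lowest adjusted p of a comparison, of which 1 is not reported here. Few counts means a mean under 100 per library.

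No pair of replicates was a duplicate: over 51 pairs the chi-square per gene was at least 3.92. Het thymus replicate 4 stood furthest from its group, at 38.0, 43.5 and 32.7 against replicates 1, 2 and 3 (median over all pairs 7.53). It also had the lowest TMM factor, 0.927. Whether replicate numbers pair samples was checked by the correlation of deviations from the group means. Every pair was over 0.1 only for KO against Het naive cells (0.144 to 0.262) and memory against naive WT cells (0.206 to 0.310). Elsewhere the check did not settle pairing, with mean correlations from -0.073 (KO against WT, thymus) to 0.203 (KO against WT, naive). In Het and in KO cells the sex read from the counts was the same at each replicate number in every subset. Sex also matched by replicate number between WT naive and WT memory libraries. It did not match throughout between WT thymus and spleen: replicate 3 was read as male in thymus and female in naive and memory cells. Replicate numbers therefore do not pair all WT thymus libraries with spleen libraries by animal. Across genotypes, replicate 2 was read as female in WT and male in Het and KO libraries. The fit behind the reported values did not use any pairing. Alternatives were DESeq2 1.42.0, RLE or mean log scaling, no filter or a stricter one (at least 1 CPM in 4 libraries), and estimates without the robust option. Others were a fit to only the libraries compared, a block for the replicate number, a sex term (24 male and 11 female libraries, read from the counts) and each replicate left out. The block in only the libraries compared was added after seeing the data. Promoter windows are from RefSeq (GRCm38.p6), in which 34 of the 41 genes have one.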

Additional observations from a re-analysis of the deposited data

Results flagged for a closer look

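In 14 of 328 checks of a gene in a group of 4 libraries, 1 library stood apart, with a gap to the nearest other library over 0.829 of the group's range. Chance alone gives about 1 in 20 such checks. In KO thymus replicate 4, Fyn was at 598 CPM (the others at 702 to 708), Prkcq at 124 (143 to 146) and Bcl10 at 5.90 (5.15 to 5.23). In WT memory cells, Ptprc was at 1114 in replicate 3 (979 to 989), Themis at 6.81 in replicate 4 (4.62 to 4.97) and Sla at 17.8 in replicate 1 (20.4 to 20.6). In WT naive replicate 1, Csk was at 388 (365 to 368) and Ptpn6 at 314 (281 to 282). Txk was at 26.2 in KO naive replicate 3 (19.3 to 20.4), and Cd2 at 11.7 in KO memory replicate 4 (5.23 to 5.88). Among Het libraries, Cd3d was at 2.54 in thymus replicate 4 (1.87 to 1.94), Malt1 at 108 in thymus replicate 1 (81.1 to 84.3), Cd8a at 11.1 in naive replicate 2 (6.90 to 7.27) and Sla2 at 139.6 in naive replicate 4 (166 to 169.6).

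The KO against WT difference of Cbl was 0.34 higher on the log2 scale in naive than in thymus cells (adjusted p = 0.0117, edgeR). It was called in all 25 alternatives run for it, with an adjusted p of 0.00462 to 0.0467.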

How the results depend on the processing

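Over 111 results for single genes and 1984 alternatives, 1806 kept direction and side of the threshold, 153 lost the call, 11 gained one and 14 changed sign, and 69 of the 111 changed in no alternative. Of 318 alternative counts of called genes, 307 lay within 1.5 times the reported count. The exceptions were KO against WT thymus cells (10 reported), with 21 under mean log scaling and 5 to 10 when a library was left out. For KO against Het thymus cells (11 reported) there were 19 under mean log scaling, 7 in only the libraries compared and 7 to 12 when a library was left out. For KO against Het naive cells (11 reported) there were 7 to 11 when a library was left out. With the replicate block in only the libraries compared, KO against Het thymus cells gave 7 genes and the memory against naive difference 2. With the block over all libraries, KO against WT counts were 10, 10 and 14, KO against Het naive cells gave 12 and memory against naive WT cells 18. No cause of these changes was tested. All sign changes were of KO against WT values that were not called. Under mean log scaling Cd3e in naive cells turned to -0.064 and Lck to -0.096, and with a sex term Lck turned to -0.0044. When a library was left out, Cd3e in naive cells ran from -0.029 to 0.0998, Lck from -0.052 to 0.0888 and Lat from -0.26 to 0.14. Lat in thymus ran from -0.25 to 0.14, and Zap70 in naive cells from -0.096 to 0.00095. Depth limits the 9 genes with few counts most.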
